A study of Mus musculus with 47 samples.

Results

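UVR under the TiO2 sunscreen was examined by setting the livers of 6 mice that received this sunscreen and UVR (TiO2 + UVR) against those of 6 mice that received the same sunscreen without UVR (TiO2-UVR). The arrays were chosen by their labels, 12 of 47 in 8 groups, with 1 array per mouse. All mice were SKH:QS hairless mice, which the study's methods describe as female and 8 weeks old at entry. The commercial product contained TiO2 nanoparticles together with organic UVR filters, so both groups carried both kinds of ingredient. It was applied weekly, 30 times over 36 weeks, and TiO2 + UVR received 29 kJ/m2 of UVR 20 min after each application. The other livers came from mice with no sunscreen (Control), a ZnO sunscreen or a sunscreen of organic filters only (Organic), each with and without the same UVR, with 6 arrays per group and 5 in ZnO + UVR. The methods house the 10 mice of a group in a single cage, while the labels give individual housing. With a shared cage, cage and treatment cannot be told apart. Per the methods, necropsy came about 24 h after the last irradiation. The hour of day is not given in the sources used here.

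Of the 64 transcripts called different below (0.652% of those tested), 6 are genes of the circadian clock. The clock is the feedback loop that gives cells a daily rhythm. Measured were 1 gene of its activating arm, 9 of its repressing arm and 3 of its output factors. NPAS2 or CLOCK pairs with BMAL1 and binds E-boxes, which switches on Per and Cry genes, Ciart, and Nr1d1 and Nr1d2, whose products then hold the loop back. NR1D1 and NR1D2 repress genes such as Npas2 and Nfil3, and the output factors TEF, HLF and DBP compete with the repressor NFIL3 for D-boxes. In liver, the loop and feeding together set the daily rhythm of genes of lipid, sugar and amino acid metabolism.

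Promoter sequences of 5 genes called below are shown because they hold letters of the motifs through which the clock acts. They are the 250 bases before the annotated start in RefSeq, build GRCm38.p6, read 5′ to 3′ on the strand of the gene. Capitals mark the E-box CACGTG, the D-box TTATGNAA or the nuclear receptor motif TAGGTCA, searched on both strands, and no match in these windows overlapped another. The first sequence lies at chr3:95882229-95882478 (minus strand), and its E-boxes start at -116, -58 and -44 from the annotated start. The Per1 window is chr11:69098699-69098948 (plus strand), the Tef window chr15:81811164-81811413 (plus strand), the Coq10b window chr1:55052520-55052769 (plus strand) and the Nfil3 window chr13:52981040-52981289 (minus strand). Per1 and Tef each have another window in the table, not shown, which holds an E-box in Tef and none of the motifs in Per1.
Ciart: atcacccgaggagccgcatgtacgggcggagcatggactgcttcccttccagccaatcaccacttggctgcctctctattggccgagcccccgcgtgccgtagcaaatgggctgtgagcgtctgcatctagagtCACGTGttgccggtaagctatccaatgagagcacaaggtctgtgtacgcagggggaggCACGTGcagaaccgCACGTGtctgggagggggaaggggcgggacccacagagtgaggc
Per1: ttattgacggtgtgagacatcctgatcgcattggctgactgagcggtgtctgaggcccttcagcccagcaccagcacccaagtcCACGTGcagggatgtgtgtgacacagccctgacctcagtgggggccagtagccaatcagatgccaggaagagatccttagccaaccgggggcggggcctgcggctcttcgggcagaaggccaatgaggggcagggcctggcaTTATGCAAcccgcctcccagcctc
Tef: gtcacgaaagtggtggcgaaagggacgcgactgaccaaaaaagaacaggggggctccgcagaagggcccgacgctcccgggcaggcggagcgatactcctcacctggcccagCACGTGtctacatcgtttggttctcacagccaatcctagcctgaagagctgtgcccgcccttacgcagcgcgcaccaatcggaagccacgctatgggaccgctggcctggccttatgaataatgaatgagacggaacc
Coq10b: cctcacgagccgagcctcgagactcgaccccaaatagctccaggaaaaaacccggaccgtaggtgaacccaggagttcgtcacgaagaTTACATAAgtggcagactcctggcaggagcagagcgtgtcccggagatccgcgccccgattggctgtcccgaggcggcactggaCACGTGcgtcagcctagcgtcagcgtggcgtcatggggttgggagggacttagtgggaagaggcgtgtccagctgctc
Nfil3: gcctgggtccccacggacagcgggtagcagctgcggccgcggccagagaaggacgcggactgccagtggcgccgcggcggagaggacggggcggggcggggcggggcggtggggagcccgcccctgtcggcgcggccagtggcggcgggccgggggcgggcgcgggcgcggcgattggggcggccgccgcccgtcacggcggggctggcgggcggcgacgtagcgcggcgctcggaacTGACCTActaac

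The E-box was found in 6.02% of all 32851 promoter windows, the D-box in 3.07% and the receptor motif in 2.23%. In the 69 windows of the called genes, some of which have several, these were 8 (11.6%), 3 (4.35%) and 4 (5.8%). Of the genes called different below, 49 had a window in this table, 16 of them higher and 33 lower with UVR. The E-box occurred in 6 of the 16 (Bnip3, Ciart, Coq10b, Per1, Rnf145 and Tef) and in 1 of the 33 (Tsc22d1). The D-box occurred in Coq10b and Per1, which were higher, and in Ddc, which was lower. The receptor motif occurred in Bhmt, Gjb2, Nfil3 and Sumo3, all lower. The windows of Npas2 and Nr1d2 held none of the 3 motifs. These matches are descriptions of letters, and no binding was measured.

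Levels are log2 values after robust multi-array average (RMA), so a difference of 1 is a doubling. Of 9815 transcripts tested, 64 (0.652%) were called different between TiO2 + UVR and TiO2-UVR by limma at a Benjamini-Hochberg adjusted p under 0.1. There were 23 higher with UVR (0.234% of those tested) and 41 lower (0.418%). A single gene symbol was known for 56 of them, 20 higher and 36 lower. The 6 arrays of 1 group did not overlap the 6 of the other in 39 of the 64, against 72 (0.734%) of all transcripts, 37 (0.377%) of them higher and 35 (0.357%) lower. The change was larger than 1 on the log2 scale in 25, of which 10 were higher and 15 lower. Across all transcripts the median difference was 0.01, and the median 95% interval reached 0.29 to either side. The tissue is a mixture of cells, in which fewer cells of a type and less RNA per cell cannot be told apart.

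**Figure D1:**
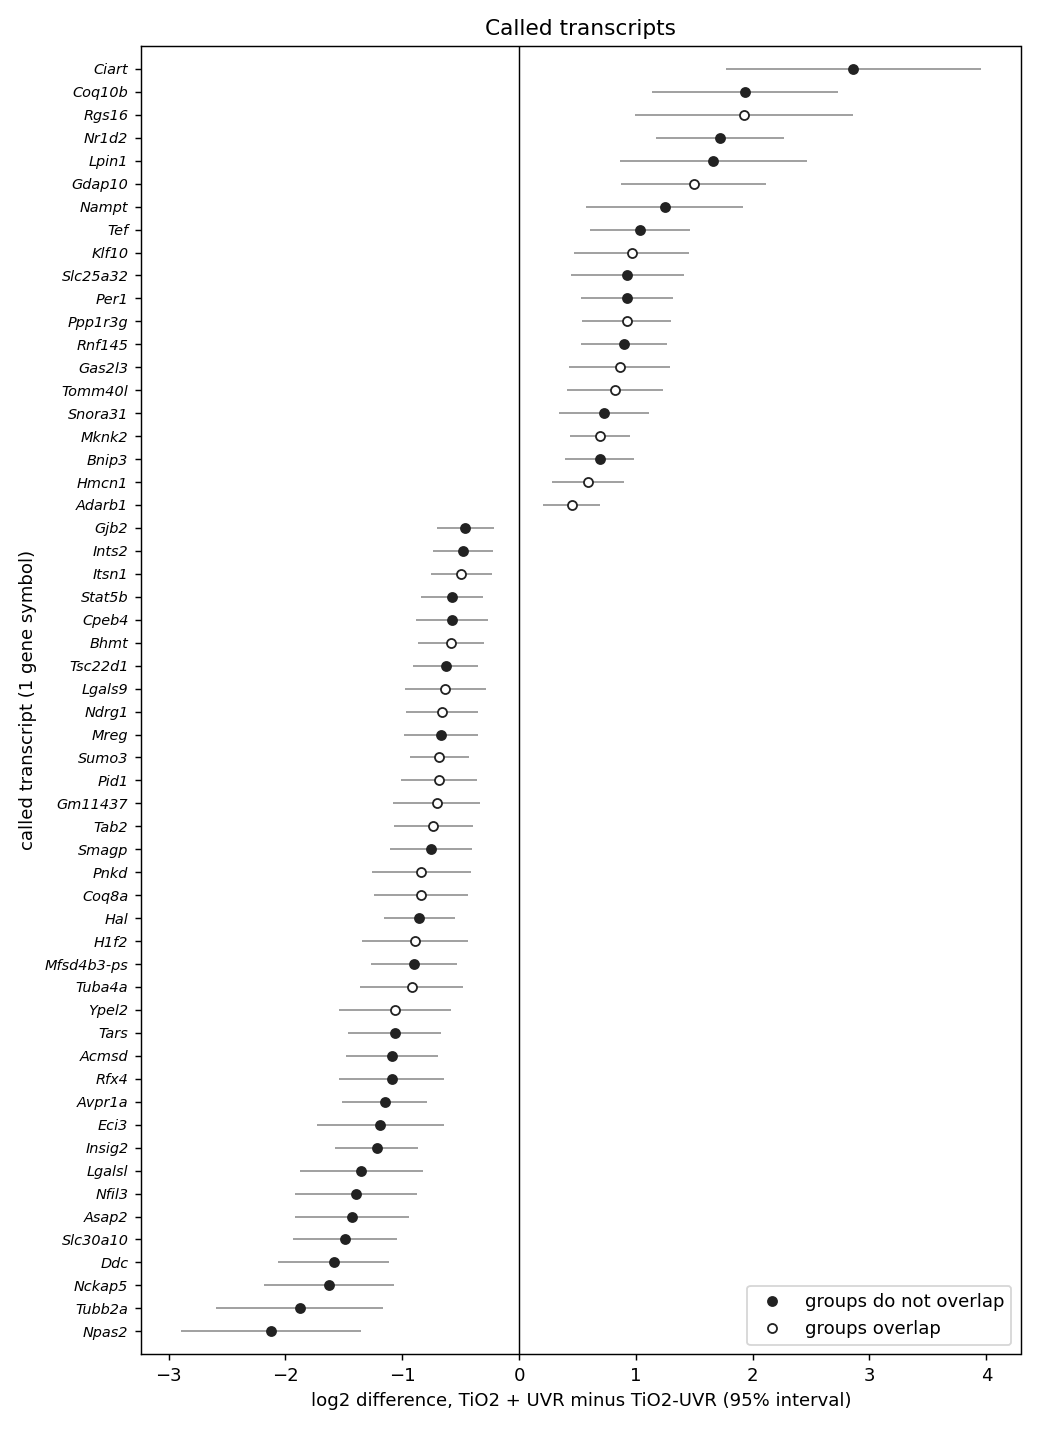
Log2 difference, TiO2 + UVR minus TiO2-UVR, with its 95% interval from limma, for the 56 called transcripts with 1 gene symbol. Filled points mark transcripts whose groups of 6 arrays did not overlap, and the differences run from -2.12 for Npas2 to 2.86 for Ciart.

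The called clock genes moved in opposite directions, with an activator lower and several repressors higher in TiO2 + UVR. The activator was the only one of the 6 genes listed in the activating arm that was among the transcripts tested. Npas2, the activator that can stand in for CLOCK, ran from 4.63 over a median of 6.30 to 7.30 in TiO2-UVR and from 3.86 over 4.07 to 4.46 in TiO2 + UVR. Every irradiated liver was below every other one, although TiO2-UVR replicate 2, at 4.63, came close to them. The difference was -2.12 (SE 0.38, adjusted p = 0.00177), the largest decrease among the named transcripts. Ciart, a repressor of the CLOCK and BMAL1 pair, spanned 4.60 to 5.97 (median 5.33) without UVR and 7.34 to 9.13 (median 8.26) with it. It had the largest increase, 2.86 (SE 0.54, adjusted p = 0.00252), and the groups were far apart. Ciart lies on chromosome 3, while the transcripts with neighbouring probeset numbers lie on chromosome 10, and whether its probes also detect a near-identical copy there was not tested.

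Nr1d2, a heme-binding nuclear receptor that represses transcription, rose from between 6.63 and 8.70 (median 7.62) to between 9.13 and 9.59 (median 9.25). The irradiated livers lay close together above a wide spread of livers without UVR, and the difference was 1.72 (SE 0.27, adjusted p = 0.000276). Per1, a repressor whose transcription also responds to glucocorticoids, went from 4.90 to 5.74 (median 5.22) without UVR to 5.88 to 6.42 (median 6.17) with it. This was a rise of 0.93 (SE 0.19, adjusted p = 0.0084) with no overlap. Of the 9 measured members of the repressing arm, these 3 were called higher and none lower, beside 0.234% and 0.418% of all transcripts. The median difference of the 9 was 0.48 against 0.01 over all transcripts, and 4 of them had negative differences. Per2 differed by 0.58 (adjusted p = 0.159), Nr1d1 by 0.48 (adjusted p = 0.999) and Cry1 by -0.57 (adjusted p = 0.858), none of which passed. Nr1d1 was spread widely in both groups, from 6.48 to 10.20 without UVR and from 6.25 to 10.64 with it. The kinase genes Csnk1d and Csnk1e and the ubiquitin ligase gene Fbxl21 differed by between -0.07 and -0.05.

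Among the output factors, the repressor Nfil3 fell and the activator Tef rose. Nfil3 lay between 8.17 and 9.51 (median 8.91) in TiO2-UVR and between 7.01 and 8.08 (median 7.33) in TiO2 + UVR. The groups did not overlap, by a difference of -1.39 (SE 0.26, adjusted p = 0.00222). Tef ranged from 5.63 to 6.22 (median 6.04) and from 6.59 to 7.33 (median 7.07), again without overlap, with a difference of 1.03 (SE 0.21, adjusted p = 0.00683). Hlf, the third measured output factor, also separated the groups, at 6.85 to 7.36 against 7.44 to 7.89, but its difference of 0.60 did not pass (SE 0.17, adjusted p = 0.106).

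**Figure D2:**
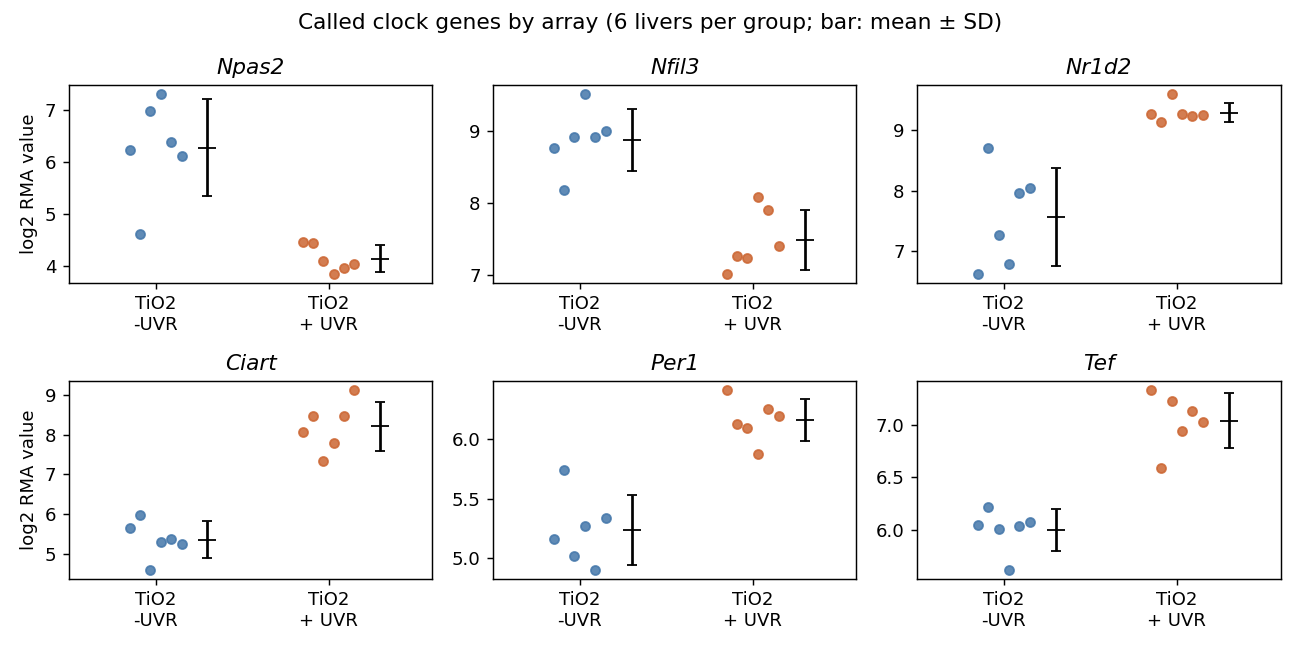
Log2 RMA value of the 6 called clock genes in each liver of TiO2-UVR (blue) and TiO2 + UVR (orange), with the mean ± SD of 6 livers beside the points. Npas2 and Nfil3 were lower and Nr1d2, Ciart, Per1 and Tef higher in all 6 irradiated livers than in any liver without UVR.

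Further transcripts that rose include single genes of mitochondrial, lipid and NAD metabolism. Coq10b, which encodes a protein that binds coenzyme Q, ran from 6.47 to 6.98 (median 6.64) without UVR and from 7.95 to 9.34 (median 8.52) with UVR. Its difference of 1.93 (SE 0.39, adjusted p = 0.00678) came with a clear gap between the groups. Coq8a, another gene named for coenzyme Q, was called lower, with a difference of -0.84 (SE 0.20, adjusted p = 0.0325). The call of Coq8a was lost in 4 of 21 alternative settings. Lpin1, a phosphatidate phosphatase of triglyceride synthesis and a coactivator, spanned 6.07 to 7.94 (median 7.42) and 8.44 to 10.12 (median 8.55). The rise was 1.66 (SE 0.40, adjusted p = 0.0347), but the call was lost without TiO2 + UVR replicate 1 or 6 or without TiO2-UVR replicate 1, and in a fit of the 12 arrays alone, with differences between 1.33 and 1.83. Nampt, the rate-limiting enzyme of NAD salvage, was at 7.73 to 8.34 (median 7.97) and at 8.73 to 9.74 (median 9.24), a difference of 1.25 (SE 0.33, adjusted p = 0.0845). This call was near the threshold and was lost in 11 of 21 alternative settings, 8 of which left out 1 array, with differences between 1.10 and 1.37.

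Rgs16, a regulator of G protein signalling, was the most variable of the larger increases. It lay between 6.80 and 8.99 (median 7.12) without UVR and between 7.56 and 11.21 (median 9.56) with UVR, so the groups overlapped. Its difference was 1.93 (SE 0.46, adjusted p = 0.0347), and TiO2-UVR replicate 2, at 8.99, stood apart from the other livers of its group. The call was lost without TiO2-UVR replicate 1 or 3 or TiO2 + UVR replicate 1 or 6, without the replicate block, with array weights and in a fit of the 12 arrays alone, with differences between 1.59 and 2.22 over all settings. Gdap10 overlapped slightly, at 4.39 to 5.86 against 5.82 to 7.25, with a difference of 1.49 (SE 0.31, adjusted p = 0.00683). Ppp1r3g, a glycogen-targeting phosphatase subunit, was higher by 0.92 (SE 0.19, adjusted p = 0.00683), the mitochondrial folate carrier gene Slc25a32 by 0.93 (adjusted p = 0.0687) and the Krüppel-like factor gene Klf10 by 0.97 (adjusted p = 0.055). The calls of Slc25a32 and Klf10 were lost in 8 and 10 of 21 alternative settings, those without TiO2-UVR replicate 1 and without TiO2 + UVR replicate 1, 4 or 6 among them for both. Rnf145, a ubiquitin ligase of the endoplasmic reticulum, rose by 0.90 (SE 0.18, adjusted p = 0.00636) and the kinase gene Mknk2 by 0.69 (SE 0.13, adjusted p = 0.00194). Bnip3, a receptor for the removal of mitochondria, was at 10.16 to 10.67 and at 11.06 to 11.33, higher by 0.69 (SE 0.15, adjusted p = 0.00961). Bnip3 lies on chromosome 7 and its neighbours by probeset number on chromosome 14, so detection of a near-identical copy, which was not tested, is possible. The other called increases with a symbol were Gas2l3, Tomm40l, Snora31, Hmcn1 and Adarb1, with differences between 0.45 and 0.86, and these calls were lost in 8, 6, 12, 12 and 13 of 21 alternative settings. A further transcript of Hmcn1 differed by 0.35 and was not called (SE 0.21, adjusted p = 0.876).

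Genes of sterol control, metal transport and hormone reception were among the clearest decreases. Insig2, which encodes a protein of the endoplasmic reticulum that restrains sterol synthesis, ran from 10.07 to 10.82 (median 10.45) in TiO2-UVR and from 8.71 to 9.68 (median 9.24) in TiO2 + UVR. The groups were apart by -1.22 (SE 0.17, adjusted p = 0.000129). It was the only called gene of 8 measured in mevalonate and sterol synthesis, beside 0.418% called lower among all transcripts. The median difference of this list was -0.03. The enzyme genes Hmgcs1 and Idi1 differed by -0.23 and 0.23 and did not pass. Slc30a10, a manganese exporter, fell from 8.13 to 8.63 (median 8.31) to 6.31 to 7.22 (median 6.97). This decrease of 1.49 left a gap between the groups (difference -1.49, SE 0.22, adjusted p = 0.000129). None of the other members of its list of 12 measured zinc and manganese transport genes was called, beside 0.652% of all transcripts. Avpr1a, a vasopressin receptor, was at 9.55 to 10.52 (median 9.71) and at 8.03 to 9.25 (median 8.84), with a difference of -1.15 (SE 0.18, adjusted p = 0.000276).

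Amino acid breakdown had 3 called genes of 14 measured, all lower, beside 0.418% called lower among all transcripts, and its median difference was -0.26 against 0.01. Ddc, the decarboxylase that forms dopamine and serotonin from their precursors, ran from 8.32 to 9.62 (median 8.77) without UVR and from 6.54 to 8.19 (median 7.26) with it. It differed by -1.59 (SE 0.24, adjusted p = 0.000129), and all irradiated livers were lower. Acmsd, which turns tryptophan breakdown away from NAD synthesis, was at 7.53 to 8.59 (median 7.92) and 6.54 to 7.24 (median 6.90), a difference of -1.09 (SE 0.20, adjusted p = 0.00177). Hal, which starts histidine breakdown, was at 10.34 to 10.81 (median 10.41) and 9.19 to 10.15 (median 9.68), a difference of -0.85 (SE 0.15, adjusted p = 0.00144). Neither gene overlapped between the groups. Amdhd1, a later enzyme of histidine breakdown, differed by -0.54 without passing (adjusted p = 0.231). Negative differences were found for 11 of the 14 genes, against 47.4% of all transcripts.

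Tars, the threonine tRNA synthetase, was the called member of 7 measured cytosolic tRNA synthetases, beside 0.418% called lower among all transcripts. Its levels of 9.32 to 10.34 (median 9.66) and 8.31 to 9.0 (median 8.70) did not overlap, and the difference was -1.07 (SE 0.20, adjusted p = 0.00216). The other synthetases differed by between -0.22 and -0.39 and did not pass, and the list's median was -0.34. Tubb2a, a beta tubulin, lay between 8.40 and 9.70 (median 9.06) and between 6.19 and 8.08 (median 7.10). It differed by -1.88 (SE 0.35, adjusted p = 0.00252), and Tuba4a, an alpha tubulin, by -0.92 (SE 0.22, adjusted p = 0.0325) with overlapping groups. Tuba4a lost its call without TiO2-UVR replicate 1 or 4 or TiO2 + UVR replicate 4 or 6, with array weights and in a fit of the 12 arrays alone. None of the other 6 measured stathmin and tubulin genes was called, beside 0.652% of all transcripts. Probes of tubulin genes can detect related copies.

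**Figure D3:**
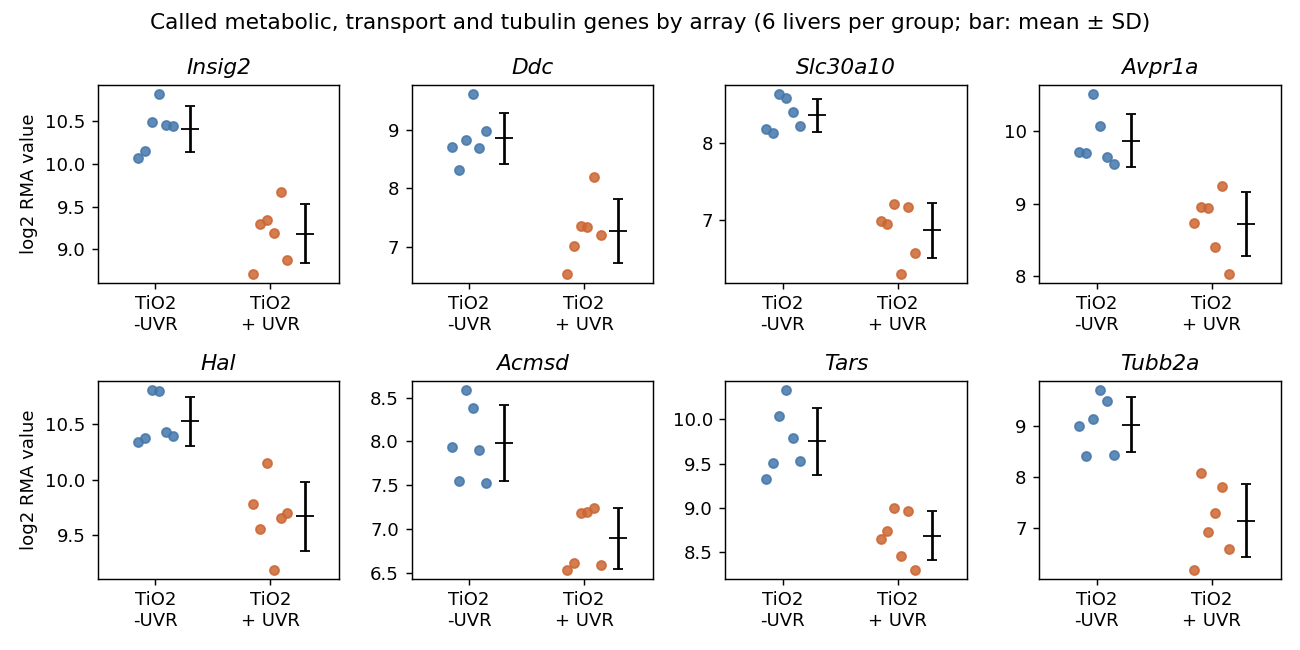
Log2 RMA value of 8 called genes that fell, by liver, in TiO2-UVR (blue) and TiO2 + UVR (orange), with the mean ± SD of 6 livers beside the points. The 2 groups did not overlap in any of them, and the differences ran from -0.85 (Hal) to -1.88 (Tubb2a).

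Several other decreases separated the groups. Nckap5 was at 6.39 to 7.31 without UVR and 4.77 to 5.68 with it, a difference of -1.63 (SE 0.28, adjusted p = 0.000846). Asap2, a regulator of Arf GTPases, was at 6.99 to 7.72 and 5.25 to 6.22, a difference of -1.43 (SE 0.24, adjusted p = 0.000817). The galectin-like gene Lgalsl was at 7.64 to 8.20 and 5.85 to 6.86, a difference of -1.35 (SE 0.26, adjusted p = 0.00349). In each of these 3 genes, every irradiated liver was below every liver without UVR. Eci3, an enoyl-CoA isomerase, differed by -1.19 (adjusted p = 0.0224) and lost its call without TiO2-UVR replicate 4 or TiO2 + UVR replicate 4, and without the replicate block. It was the called member of 13 measured genes of PPAR alpha and fatty acid oxidation, beside 0.418% called lower among all transcripts. In this list Acot3 (1.07, adjusted p = 0.199) and Ppara (0.55, adjusted p = 0.366) had positive differences that did not pass. Stat5b, a transducer of growth hormone signals, differed by -0.57 (SE 0.13, adjusted p = 0.0272), and Stat5a by -0.38 (adjusted p = 0.221). Stat5b lost its call without TiO2 + UVR replicate 4 or 6. Bhmt, an enzyme of methionine formation from homocysteine, was lower by a difference of -0.58 (adjusted p = 0.0347) and Sumo3, a ubiquitin-like modifier, by -0.68 (adjusted p = 0.00177). Bhmt lost its call in 7 of 21 alternative settings, and Sumo3 kept it in all.

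DNA damage and inflammation are responses often studied after UVR. The lists of p53 targets, ATM signalling, BRCA1 and Fanconi repair, end joining, nucleotide excision repair and NF-kB targets held 47 measured genes, none of them called. With 0.652% of all transcripts called, a count of 0 in lists of this size is near the background and is no result about them. Their differences ran from -0.40 to 0.47 with a median of 0.01, and the smallest adjusted p was 0.231 (Brip1, 0.44). All 6 genes of nucleotide excision repair had positive differences (0.04 to 0.47) and 6 of the 7 of end joining negative ones, against 47.4% negative over all transcripts, and none passed. Acute phase genes (7 measured), antioxidant genes (10) and the xenobiotic lists (13 of phase I and 9 of phase II) also had none called. Among 3 measured heme genes and 30 of the respiratory chain none was called, and likewise among 20 proteasome genes, whose median was -0.18. The endoplasmic reticulum stress list had a median of -0.17 over 13 genes, 12 of them negative, and none called. Dnajb11, a chaperone there, had the smallest adjusted p of that list (-0.62, SE 0.18, adjusted p = 0.159). The list of glucocorticoid targets had 3 of 11 measured genes called higher and none lower, beside 0.234% and 0.418% of all transcripts. Its median difference was 0.02, 5 of the 11 were negative, and the largest, 1.66, was that of Lpin1. Of 414 genes in any list and measured, 20 were called, against 0.652% of all transcripts, and the lists were chosen with earlier results known.

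Markers of the cell types of liver are given as levels and signs. None of 64 measured markers in 10 cell type lists was called, a count near the background of 0.652%, and their differences lay between -0.41 and 0.45. Endothelial markers had negative differences in 10 of 10 (-0.41 to -0.04), stellate and matrix markers positive ones in 14 of 17 (-0.23 to 0.45), and hepatocyte markers negative ones in 5 of 6 (-0.19 to 0.02). Their part in the results above was not tested. The mean level of 6 hepatocyte markers was 10.63 to 11.27 over the arrays of TiO2-UVR and 10.67 to 11.10 in TiO2 + UVR. For 6 Kupffer cell and macrophage markers it was 6.11 to 6.98 and 6.50 to 7.39, for 7 lymphocyte markers 4.80 to 5.20 and 4.89 to 5.15, for 10 endothelial markers 6.10 to 6.59 and 6.02 to 6.46, and for 17 stellate and matrix markers 6.19 to 6.43 and 6.30 to 6.48. RMA values have no zero, so no marker was read as absent. The array slope, obtained by regressing each array on the average array of the series, was 0.996 ± 0.020 in TiO2 + UVR and 1.00 ± 0.05 in TiO2-UVR (SD, n = 6), a difference of -0.0062 (exact permutation test over all splits of the 12 arrays, two-sided p = 0.792). TiO2-UVR replicate 1 had the lowest slope of the 12, 0.909, and replicate 4 the highest, 1.07. Without TiO2-UVR replicate 1, 39 transcripts were called, and with the slope as a covariate 178 were, among them all 64.

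The UVR difference under TiO2 was set against that under the other sunscreens, which share no arrays with it. UVR gave 5 called transcripts without sunscreen and none with the ZnO or the Organic sunscreen, by limma at an adjusted p under 0.1. At an unadjusted p under 0.05, 1260 transcripts passed without sunscreen, 653 (6.65%) under TiO2, 333 with Organic and 215 with ZnO. Where nothing differs, a share of 0.05 of the 9815 transcripts passes on average, so these counts are no tally of UVR responses. The difference between UVR effects was called for 17 transcripts against no sunscreen (0.173%), 69 against ZnO (0.703%) and 32 against Organic (0.326%). Of the 64 transcripts called under TiO2, 12, 51 and 28 were among these. The 64 were selected for a large effect under TiO2, so these counts and those that follow carry no test. Every one of them had a smaller UVR effect without sunscreen, with ZnO and with Organic, where the median size was 0.18, 0.31 and 0.13 against 0.90 under TiO2. A difference from a smaller effect must have the direction of the TiO2 effect, so that direction is no further result. The UVR effect had the same sign as under TiO2 in 34 of the 64 without sunscreen (53.1%, against 51.7% of all transcripts), in 2 with ZnO (3.12%, against 45.3%) and in 15 with Organic (23.4%, against 50.0%). The ZnO values rest in part on ZnO-UVR replicates 1 and 2. Without these 2 livers, 15 transcripts were called against ZnO, all among the 69 and all among the 64, and the sign was shared in 18 of the 64 (28.1%).

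Against no sunscreen, the differences of UVR effects with the smallest adjusted p included several of the genes above. The UVR difference of Nr1d2 was -0.41 when no sunscreen was used and 1.72 with TiO2, a difference of 2.13 (SE 0.38, adjusted p = 0.0123). For Insig2 these were 0.03 and -1.22 (difference -1.25, adjusted p = 0.0196), for Slc30a10 0.13 and -1.49 (-1.62, adjusted p = 0.0196) and for Ddc 0.06 and -1.59 (-1.65, adjusted p = 0.0196). Avpr1a, Tsc22d1, Acmsd, Gdap10, Rnf145, Tubb2a, Bhmt and Bnip3 were the other called transcripts whose difference passed. The clock genes with the largest differences under TiO2 did not pass against no sunscreen: Npas2 differed by -2.09 (SE 0.54, adjusted p = 0.118) and Ciart by 2.89 (adjusted p = 0.132). Both passed against ZnO, where their UVR differences had the opposite sign but did not pass by themselves. For Ciart the UVR difference under ZnO was -1.39, which differed from that under TiO2 by 4.25 (adjusted p = 0.00229). For Npas2 it was 0.92, which differed by -3.04 (adjusted p = 0.00226). The livers of ZnO-UVR were split, with Ciart at 9.04 and 8.53 in replicates 1 and 2 and at 4.87 to 5.64 in the others, and Npas2 at 4.39 and 4.02 against 6.04 to 7.00. Without these 2 livers the UVR differences under ZnO were -0.29 for Ciart and 0.21 for Npas2, and the differences from TiO2 were 3.15 and -2.33 (adjusted p = 0.0449 for both).

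**Figure D4:**
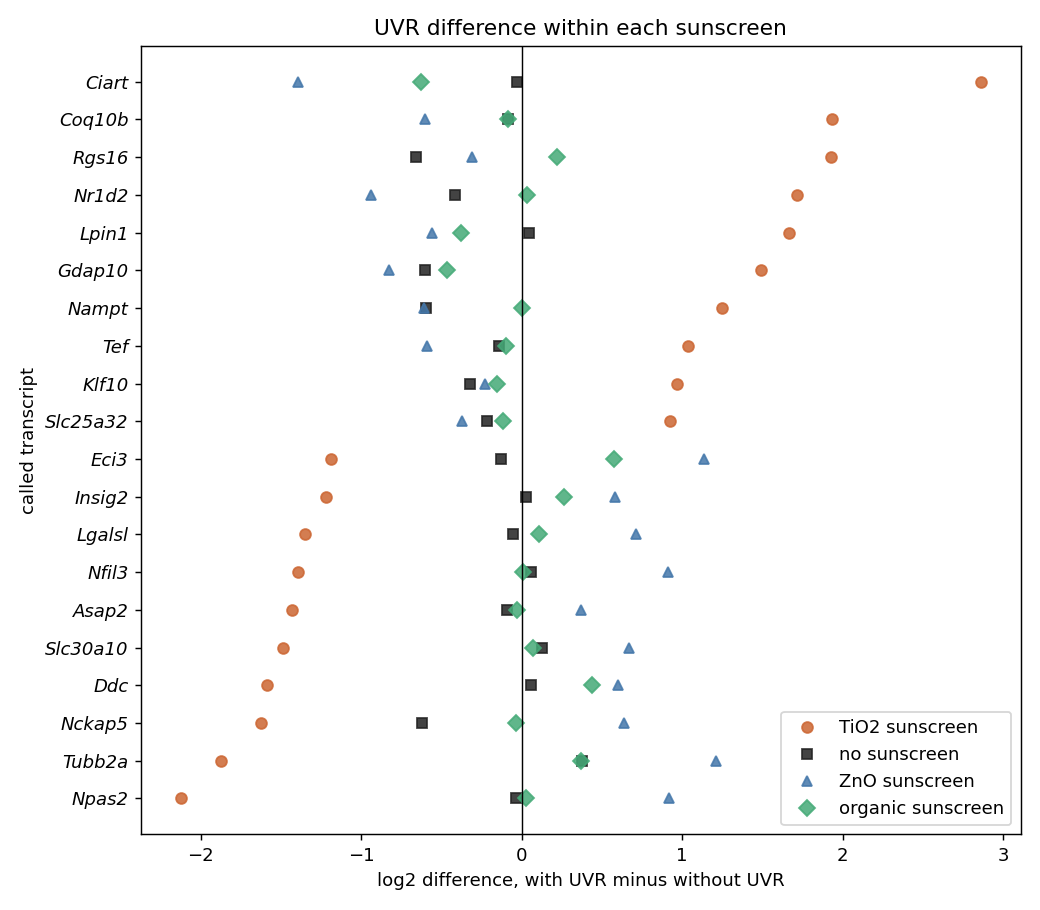
UVR difference (log2, with UVR minus without) within the TiO2, no-sunscreen, ZnO and Organic backgrounds for the 10 largest called increases and the 10 largest called decreases under TiO2, which chose the genes. The TiO2 points lie farthest from 0 in every row, and the ZnO points, which rest in part on ZnO-UVR replicates 1 and 2, lie on the other side of 0 for all 20 genes.

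In most of the other groups the called transcripts were at levels nearer to TiO2-UVR, and in both Organic groups at levels nearer to TiO2 + UVR. The mean of TiO2-UVR lay inside the range of the 6 untreated livers (Control-UVR) for 58 of the 64 transcripts, and the mean of TiO2 + UVR for 12. The mean of Control-UVR was nearer to TiO2-UVR than to TiO2 + UVR in 61 of 64, that of Control + UVR in 60, that of ZnO-UVR in 49 and that of ZnO + UVR in 64. In the Organic groups the order turned. The mean of Organic-UVR was nearer to TiO2 + UVR in 61 of 64 and that of Organic + UVR in 57, including all 6 called clock genes in both. The Organic-UVR mice received no UVR. These counts describe transcripts chosen by the TiO2 comparison and were not tested.

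Npas2 shows the pattern liver by liver. Its median was 4.06 in Organic-UVR (3.79 to 4.63) and 4.11 in Organic + UVR (3.79 to 4.82), next to 4.07 in TiO2 + UVR. In Control-UVR it was 6.20 (4.12 to 6.71), in Control + UVR 5.65 (5.11 to 6.16), in ZnO-UVR 6.30 (4.02 to 7.00) and in ZnO + UVR 6.62 (6.37 to 6.93). Single livers of Control-UVR and ZnO-UVR, neither of which received UVR, thus reached the low levels of TiO2 + UVR. Insig2 had medians of 9.28 in Organic-UVR and 9.38 in Organic + UVR, beside 9.24 in TiO2 + UVR, and of 9.96 to 10.45 in the Control, ZnO and TiO2-UVR groups. Tubb2a had medians of 7.07 and 7.39 in the Organic groups and 7.10 in TiO2 + UVR, against 8.84 to 9.33 in the rest. The neighbouring medians of TiO2 + UVR and both Organic groups lay within the spread of their livers in these 3 genes. Ciart was more spread, from 6.02 to 9.07 in Organic-UVR and from 5.40 to 9.11 in Organic + UVR. Replicates 3 and 6 of Organic + UVR, at 5.78 and 5.40, lay within the TiO2-UVR range of 4.60 to 5.97.

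**Figure D5:**
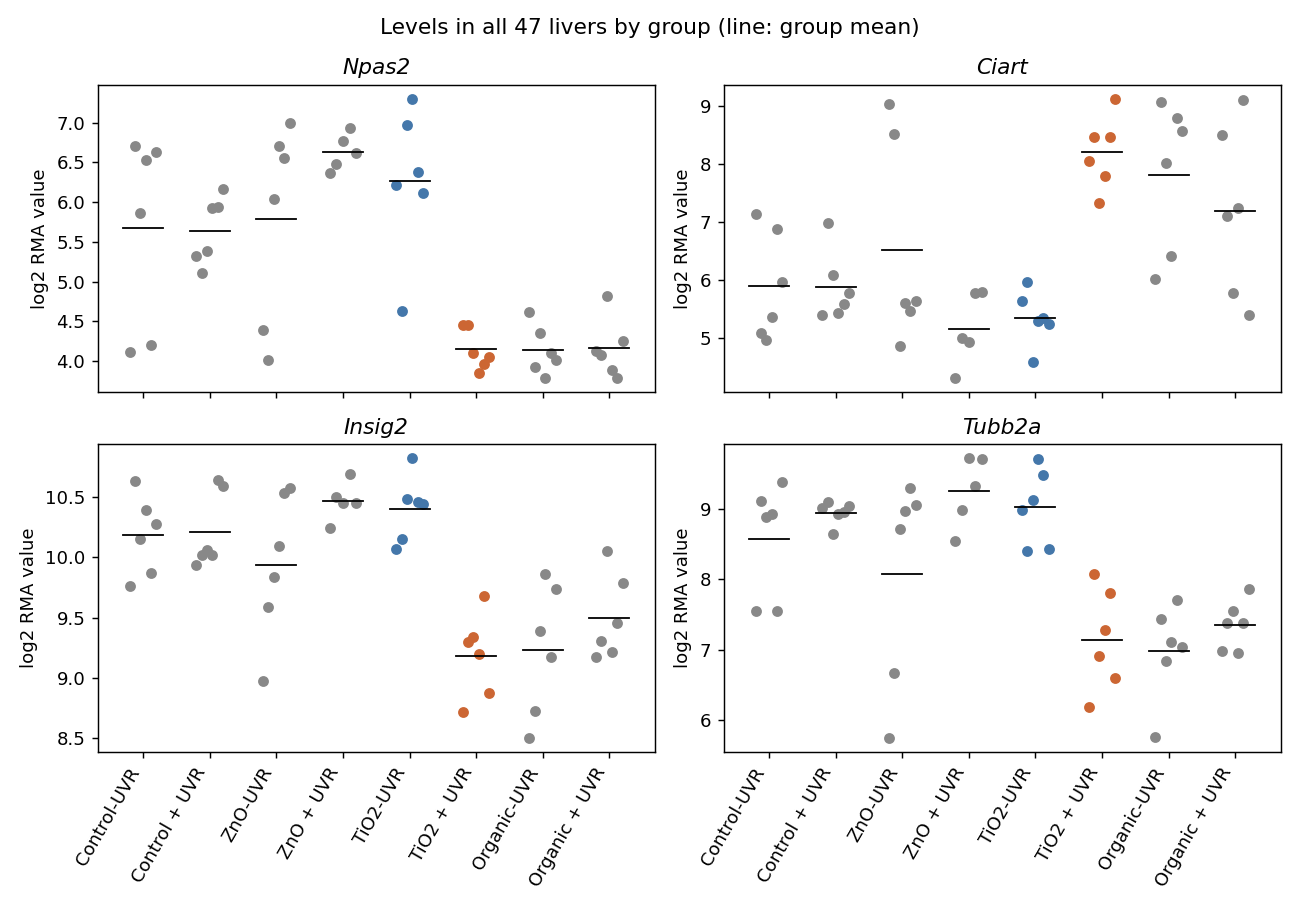
Log2 RMA value of Npas2, Ciart, Insig2 and Tubb2a in all 47 livers by group, with the group mean as a line (TiO2-UVR blue, TiO2 + UVR orange, other groups grey). The mean of TiO2 + UVR lies nearer to both Organic means than to that of TiO2-UVR in all 4 genes, and single livers of ZnO-UVR lie among those of TiO2 + UVR in all 4, as do livers of Control-UVR in Npas2 and Tubb2a. For Ciart, replicates 3 and 6 of Organic + UVR lie within the range of TiO2-UVR.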

How the data were processed

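Liver RNA of 47 mice was measured on Affymetrix whole-transcript arrays. Per the labels and the study's methods, the authors applied robust multi-array average (RMA) normalisation and deposited log2 values. Chips were processed with 1 of each group per batch and batch effects were removed, but whether the deposited values had that step is not given in the sources used here. Of 16383 probesets in the table, 6568 control probesets were left out and 9815 transcripts were tested, most on chromosomes 1 and 10 to 16 (for example 1632 on chromosome 11 and 5 on chromosome 2). Gene lists therefore hold only members among these transcripts, called measured here, and a gene missing from them may still be on the array. The array annotation gave 1 symbol for 7450 transcripts, of which 7421 matched RefSeq, several for 511 and none for 1854. Where a gene had several transcripts, the brightest stood for it in the lists.

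A linear model over the 8 groups was fitted in limma 3.58.1 (R 4.3.3), in which the labels' replicate number served as a block, with 34 residual degrees of freedom. The threshold was an adjusted p under 0.1 (Benjamini-Hochberg over all 9815 transcripts), the study's false discovery rate. The labels do not say that the replicate number is the processing batch. Differences between UVR effects were interaction contrasts of the same fit, and the array slope was compared by an exact permutation test. The genes named were the 10 largest called increases and decreases, all measured clock genes, and, of each other list, members with the smallest p, with further members as examples. Members, lists and naming rule were chosen with earlier results of these data known. Scripts were tested on simulated data. Alternatives were no block, the 12 arrays alone, quantile normalisation, array weights, a filter on dim transcripts, an intensity trend with robust variances, an adjusted p under 0.05, the array slope as a covariate and leaving out 1 array at a time. For the calls under TiO2, the arrays left out were the 12 of TiO2 and Organic-UVR replicate 1, which had the lowest slope of the series (0.772). For each difference between UVR effects, they were the arrays of TiO2 and of the compared background. ZnO-UVR replicates 1 and 2 were also left out together, a setting chosen after seeing the data. The number of arrays limits the precision. The limma p-values set a difference against the variation left between mice, pooled over the 8 groups. With a shared cage per group, they cannot cover variation between cages.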

Additional observations from a re-analysis of the deposited data

Results flagged for a closer look

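An array far from the other 5 of its group, by Dixon's criterion, was found in 10 of 146 sets of 6 values, and chance alone gives about 1 in 20. In TiO2-UVR these were replicate 3 for Asap2 (7.72, above the rest) and Itsn1 (7.03, above), replicate 4 for Tef (5.63, below) and Ipo5 (7.64, above), replicate 2 for Ppp1r3g (6.16, above) and Rgs16 (8.99, above), and replicate 5 for Bhmt (7.89, below). In TiO2 + UVR these were replicate 3 for Nr1d2 (9.59, above), replicate 6 for Lgalsl (5.85, below) and replicate 4 for Gjb2 (9.48, below).

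The effect of UVR under TiO2 differed from that without sunscreen in 17 transcripts by the interaction test (limma, adjusted p under 0.1). It was higher under TiO2 for Nr1d2 by 2.13, Gdap10 by 2.09, Fmo2 by 1.75, Abcd2 by 1.43, Rnf145 by 1.17, Fnip1 by 1.15, Hlf by 0.99, Bnip3 by 0.88 and Ipo5 by 0.71. It was lower for Tubb2a (-2.25), Ddc (-1.65), Slc30a10 (-1.62), Acmsd (-1.35), Avpr1a (-1.26), Insig2 (-1.25), Tsc22d1 (-0.96) and Bhmt (-0.88). Abcd2, a transporter of very long-chain fatty acids into peroxisomes, fell by 0.85 with UVR when no sunscreen was used (difference -0.85) and differed by 0.58 under TiO2, where it was not called. Fmo2, Fnip1, Hlf and Ipo5 were likewise not called under TiO2 alone. The UVR effect differed between TiO2 and ZnO in 69 transcripts and between TiO2 and Organic in 32.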

How the results depend on the processing

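The replicate block raised the number of calls. Without it 42 transcripts were called, all among the 64, and the differences between UVR effects gave 7 calls against no sunscreen, 45 against ZnO and 13 against Organic. Quantile normalisation gave 100 calls (60 shared), and 37, 125 and 50 for these differences. Array weights gave 97, 188 and 210 for the differences, and the array slope as a covariate gave 178 calls (64 shared), and 61, 204 and 121. At an adjusted p under 0.05, 20 calls against Organic were left. Leaving out 1 array of TiO2, or Organic-UVR replicate 1, gave 31 calls (without TiO2 + UVR replicate 6) to 83 (without Organic-UVR replicate 1). There were 39 without TiO2-UVR replicate 1 and 41 without TiO2 + UVR replicate 4. Omissions of other arrays were not examined for these calls. For the differences, 1 array of TiO2 or of the compared background was left out at a time. Against no sunscreen this gave 9 (without TiO2-UVR replicate 1) to 34 (without Control-UVR replicate 2) calls. Against ZnO it gave 39 (without ZnO-UVR replicate 2) to 89 (without ZnO-UVR replicate 4), and 15 were left without ZnO-UVR replicates 1 and 2, a setting chosen after seeing the data. Against Organic it gave 13 (without Organic + UVR replicate 6) to 65 (without Organic-UVR replicate 1). The array slope difference ran from -0.0246 (without TiO2-UVR replicate 1) to 0.00667 (without TiO2-UVR replicate 4), and was 0.000482 without TiO2 + UVR replicate 4. The other settings, 12 arrays alone (54 calls, 38 shared), a filter on dim transcripts (68) and an intensity trend with robust variances (60), stayed within 1.5 times the 64. The cause of these shifts was not tested.

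All 56 called genes with a symbol had the same direction in each of the 21 alternative settings, in which only TiO2 arrays and Organic-UVR replicate 1 were left out. The genes were chosen on these same arrays. Settings that change only the variance, the threshold or the set of transcripts tested could not alter a direction. Of these genes, 26 were called in every setting, 9 higher and 17 lower. These included Ciart, Nr1d2, Per1, Tef, Npas2, Nfil3, Insig2, Slc30a10, Ddc, Acmsd, Hal, Avpr1a, Tars and Tubb2a. Among the same-numbered TiO2 pairs the correlation of deviations from the group means ran from -0.06 to 0.28 and was above 0.1 in 3 of 6, and in 2 pairs an array correlated best with its own number. Over all groups it averaged 0.15 for the same number and -0.03 for different numbers. Whether the number is the processing batch was not settled.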
